A study of Mus musculus with 6 samples.

Results

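Immediate early transcription factors were read in small intestinal crypts, which are the pits where the lining renews itself, dissected by laser from 6 mice. The set was 10 genes taken by symbol of 37941 genes and unnamed probes, Fos, Fosb, Jun, Junb, Jund, Egr1, Atf3, Ier2, Ier3 and Klf6, and all 10 were on the array, with 12 probes of the 41006 that were not controls. Fosb and Jund had 2 probes each and the others 1. The LOI(+) group held 3 C57BL/6 mice aged 120 days whose maternal chromosome lacked H19 and the methylated control region upstream of it. Per the series' design, this germline deletion turns on the maternal copy of Igf2, which codes for a fetal growth factor, so that its imprinting is lost. The LOI(-) group held 3 wild-type mice of the same age from the same kind of cross, between carrier females and wild-type males. Of each group 2 mice were labelled male and 1 had no sex given. Per the labels, the gut was rinsed and pieces of its middle were frozen after CO2 euthanasia, and sections were stained before dissection. RNA of each mouse carried Cy3 on its own 2-colour array. Cy5 always marked Universal Mouse Reference RNA, which pools cultured cell lines.

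Immediate early genes are switched on within minutes of a stimulus such as serum, a growth factor or tissue injury, without new protein synthesis. The products of the Fos and Jun families pair to form AP-1, a transcription factor that turns on later genes. Their messages are short-lived, and in tissue taken from an animal they also respond to how it was handled before freezing. In the intestinal lining, growth factor signals that reach crypt cells act through the same kinases and through serum response factor. That factor binds DNA upstream of Fos and Egr1, at sites that need not lie in the windows searched below. Of the 10, Ier3 codes for no DNA-binding factor and Ier2 for a nuclear protein, and both were taken with the others as genes of the same early response.

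The arrays were alike in brightness. The median Cy3 signal over all probes lay between 563 and 589 on the LOI(+) arrays and between 552 and 603 on the LOI(-) arrays, over a local background of 387 to 391, and the 95th percentile of the 314 negative control spots was 439 to 449. Of the measured markers of crypt stem and progenitor cells, 4 of 5 had a mean log2 ratio of crypt over reference above 0 in both groups, as had 6 of 6 of Paneth cells. The stem cell receptor gene Lgr5 stood at 1.48 in LOI(+) and 1.29 in LOI(-). The exception, the replication gene Mcm5, stood at 0.22 in LOI(+) and -0.32 in LOI(-). H19 was not analysed here, so the deletion was not checked. LOI(+) 2 had the most spots marked as outliers, 146, and none of these was a spot of the 12 probes. No probe of the set was saturated in either channel on any array.

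Start regions are printed for Fos, the best known gene of the class, and for Jun and Klf6, whose groups lay apart in opposite directions. Each is the 250 bases before and the 50 bases after the gene's start, from RefSeq on GRCm38.p6, 5′ to 3′ on the gene's strand. Capitals mark matches of TGACGT, the core of the cAMP response element, TGACATCA, the AP-1 site known from Jun itself, and TATAAA, the TATA box.
Fos, chr12:85473640-85473939, + strand: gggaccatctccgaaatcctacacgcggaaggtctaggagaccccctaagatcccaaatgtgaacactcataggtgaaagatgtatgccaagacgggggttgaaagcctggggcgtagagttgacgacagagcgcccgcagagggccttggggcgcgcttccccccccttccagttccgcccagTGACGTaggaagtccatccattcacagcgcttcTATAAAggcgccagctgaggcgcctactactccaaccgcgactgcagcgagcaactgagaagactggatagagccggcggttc
Jun, chr4:95052173-95052472, - strand: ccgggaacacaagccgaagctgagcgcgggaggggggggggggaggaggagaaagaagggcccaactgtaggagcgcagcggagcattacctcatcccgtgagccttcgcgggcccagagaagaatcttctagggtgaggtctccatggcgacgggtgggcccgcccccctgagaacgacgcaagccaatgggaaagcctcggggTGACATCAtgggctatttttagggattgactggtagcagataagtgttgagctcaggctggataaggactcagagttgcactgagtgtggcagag
Klf6, chr13:5861239-5861538, + strand: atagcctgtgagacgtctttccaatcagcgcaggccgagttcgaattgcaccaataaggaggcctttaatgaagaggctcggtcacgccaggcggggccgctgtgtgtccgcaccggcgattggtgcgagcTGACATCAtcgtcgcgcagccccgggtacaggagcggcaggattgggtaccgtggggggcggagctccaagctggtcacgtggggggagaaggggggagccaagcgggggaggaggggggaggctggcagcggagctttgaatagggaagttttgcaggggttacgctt
In the Fos window TGACGT began at -66 from the gene's start and TATAAA at -33. TGACATCA began at -45 in Jun and at -119 in Klf6. In Junb, whose window is not printed, TATAAA began at 1, the gene's first base, and not before the start as in Fos. The search covered both strands of the windows of 8 member genes, all but Egr1 and Ier2. Sites outside these windows were not searched, so an absence holds only for the bases within them. TGACGT was in 2 of the 8 (Fos and Atf3), TGACATCA in 2 (Jun and Klf6), TATAAA in 2 (Fos and Junb) and GCGNGGGCG, the EGR1 site, in 1 (Fosb). Neither TGANTCA, the common AP-1 site, nor the CArG box, the site of serum response factor, was in any of the 8. Of 32851 windows of this length in the RefSeq table, 7.51% held TGACGT, 3.62% TGACATCA, 13.6% TATAAA, 5.55% GCGNGGGCG, 7.81% TGANTCA and 1.63% the CArG box. The motifs were chosen after seeing the sequences, so the counts are no test against these shares. A CArG box can hold TATAAA, so matches of the 2 can share bases. A match is a description of the letters and not of binding.

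Both genes with 2 probes need their probes told apart. The Jund probes, 60 bases each, overlap: the last 19 bases of the first, in capitals, are the first 19 of the second, so they are not independent readings. Shown are the 30 bases that hold the overlap.
Jund probe 1, bases 31 to 60: gtttggttttgTTTTGCTACGAGTCCACAT
Jund probe 2, bases 1 to 30: TTTTGCTACGAGTCCACATtcctgttccgt
The Fosb probes shared no run longer than 5 bases.

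Most of these genes gave a signal near the array's median in the crypts. Cy3 stayed within 1.5 times the array's median on every array for 7 of the 12 probes, those of Fos, Jun, Junb, Egr1, Atf3 and Ier3 and the second Fosb probe, though all 12 were above the negative controls on all 6 arrays, as were 91.4% of all probes, and well above local background. Mean Cy3 of these 7 lay between percentile 30.1 (Fosb probe 2) and 54.3 (Egr1) of all probes, so signals this low were common on the array. The share of all probes within 1.5 times the median was not counted. The 5 brighter probes were both of Jund, with Cy3 signals of 6857 to 9154 and 5570 to 7126, and those of Ier2, at 2609 to 3417, Klf6, at 1008 to 1729, and Fosb probe 1, at 713 to 999. Fosb probe 1 lay at percentile 74.8. Signals of different probes are not compared as amounts, because probes differ in how well they bind.

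**Figure D1:**
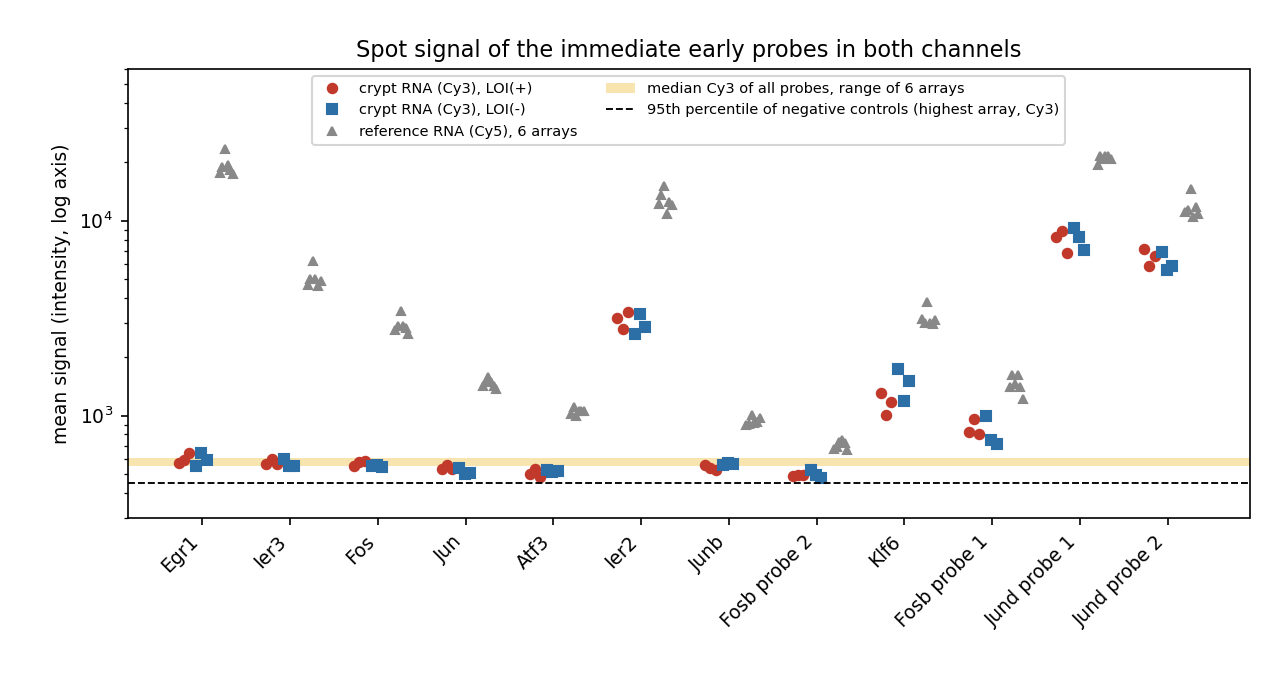
Mean spot signal (log axis) of each probe in crypt RNA (Cy3, LOI(+) circles, LOI(-) squares, 1 point per mouse) and in reference RNA (Cy5, triangles, 6 arrays), with the range of the arrays' median Cy3 as a band and the highest negative control level as a dashed line. The Cy3 points of Egr1, Ier3, Fos, Jun, Atf3, Junb and Fosb probe 2 lie on or near the band, while their Cy5 points lie above it. The band is of Cy3 only. The arrays' median Cy5 was 648 to 698, and the Cy5 points of Fosb probe 2, at 664 to 748, lie near it.

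Several of these probes were bright in the reference. Egr1, a zinc finger factor, had a Cy3 signal of 549 to 642 in crypts and a Cy5 signal of 17261 to 23360 in the reference RNA. Its log2 ratio was -5.42, -5.40 and -5.17 in LOI(+) crypts and -5.83, -4.71 and -5.06 in LOI(-) crypts. The mean over the 6 arrays, -5.26, is a 38.4-fold lower signal in crypts than in the reference, at percentile 0.0147 of all probes. That fold was 16.0 without background correction and 50.9 with median centring in place of loess. Ier3, a protein of cell survival induced by growth factors, had a mean of -3.52, and Fos one of -2.80, at percentiles 0.165 and 0.45 of all probes.

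Further up the order stood Jun at -1.94, Atf3, a stress-induced factor of the CREB family, at -1.58, Ier2, a nuclear protein induced by serum, at -1.004, and Junb at -0.92. Klf6, a zinc finger factor of the Krüppel family, stood at -0.49, Fosb probe 1 at -0.27 and Jund probe 1 at -0.18. Over the 6 arrays the ranges of neighbours in this order did not overlap from Egr1 through Ier3, Fos and Jun to Atf3, and each later pair of neighbours overlapped. This order is that of the main processing. Without background correction Ier2 stood between Jun and Atf3, and with normexp and no offset Junb, at -1.12, stood below Ier2, at -1.01. With the main processing, a ratio below -1 was found for 6 of the 12 probes, against 5.73% of all probes. A ratio below 0 was found for 11 of the 12, against 51.1%. The count below -1 depended on the processing. Without background correction Jun was at -0.98, Ier2 at -0.95 and Atf3 at -0.67, and with processed signals Ier2 was at -0.99. With normexp and no offset Junb was at -1.12 and Fosb probe 2 at -1.19, and with median centring Junb was at -1.05. Without a dye swap, these ratios also carry any dye effect of the probe.

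The second probes gave other ratios to the reference. Fosb probe 2 had a mean of -0.86, with a Cy3 signal of 480 to 528. Jund probe 2 had a mean of 0.31, against -0.18 for probe 1, so for Jund the side of 0 depended on the probe, and with median centring both were below 0, at -0.20 for probe 2 and -0.69 for probe 1.

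**Figure D2:**
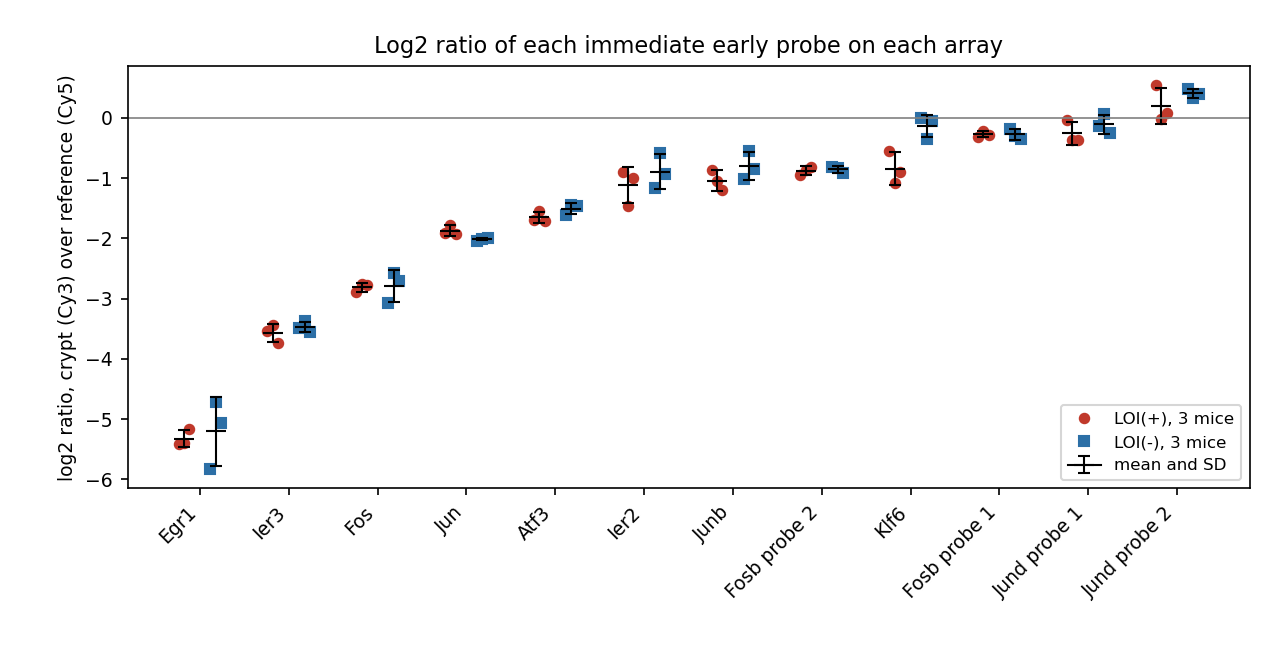
Log2 ratio of crypt over reference for each probe and mouse, LOI(+) left of LOI(-), with the mean and SD of 3 mice per group. Egr1 lies lowest, at -5.83 to -4.71, and Jund probe 2 highest, and the groups lie apart for Klf6 and Jun.

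Group differences are log2 ratios of LOI(+) less those of LOI(-), with the standard error (SE) from limma and n = 3 mice a group. None of the 10 genes passed an adjusted p of 0.05 in limma. That holds for the whole array, where 0 of 37941 genes and unnamed probes (0%) passed, 2335 (6.15%) had an unadjusted p under 0.05 in limma and 2117 in an unmoderated model. Of the members 1 gene, Klf6, had an unadjusted p under 0.05, and it was lower in LOI(+). At that level 2.22% of all features were lower and 3.93% higher in LOI(+). A difference below 0 was found for 8 of the 10 genes, against 48.7% of all features, and the median of the 10 was -0.13, against 0.0030 over all features. As the RNA came from whole crypts, fewer cells of a type and less RNA per cell cannot be told apart.

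Klf6 differed most. Its log2 ratio was -0.54, -1.09 and -0.90 in LOI(+) crypts and -0.0046, -0.34 and -0.055 in LOI(-) crypts. The 3 LOI(+) arrays all lay below the 3 LOI(-) arrays, and LOI(+) 1 and LOI(-) 2 were the nearest of them. The difference of -0.71 ± 0.15 (SE) is a fold of 0.613, with a 95% interval from -1.07 to -0.35 on the log2 scale, an unadjusted p of 0.00242 and an adjusted p of 0.801 in limma. Klf6 ranked 103 by p among all features. In the Cy3 channel alone the groups overlapped, with signals of 1298, 1008 and 1175 in LOI(+) crypts against 1729, 1185 and 1503 in LOI(-) crypts, and a fit to normalized Cy3 alone, added after seeing the data, gave -0.60.

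Of the AP-1 subunits, the Fos family had mixed arrays and differences near 0. Fos had log2 ratios of -2.90, -2.76 and -2.77 in LOI(+) and -3.08, -2.57 and -2.72 in LOI(-). Both the lowest and the highest array were LOI(-) mice, and the difference was -0.024 ± 0.13 with a 95% interval from -0.33 to 0.28. Fosb, a close relative that takes the place of FOS in AP-1, differed by 0.0027 ± 0.065 on probe 1 and by -0.017 ± 0.063 on probe 2, with the arrays of the groups mixed on both.

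The Jun family, the partners of FOS proteins, had differences on both sides of 0, none of which passed the test. Jun had log2 ratios of -1.92, -1.77 and -1.93 in LOI(+) and -2.04, -2.004 and -1.99 in LOI(-). All LOI(+) arrays lay above all LOI(-) arrays, by a difference of 0.14 ± 0.063 with an unadjusted p of 0.0632 and an adjusted p of 0.819 in limma. This order is that of the main processing. The Jun difference was 0.016 ± 0.059 with scale normalization between arrays and -0.0097 without background correction. Junb, which can restrain the activity of JUN, had log2 ratios of -0.87, -1.05 and -1.20 in LOI(+) and -1.01, -0.55 and -0.84 in LOI(-). The groups overlapped, and the difference was -0.24 ± 0.13 with a 95% interval from -0.55 to 0.080. Without LOI(-) 2, the array with the highest Junb ratio, it was -0.11.

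On probe 1 Jund, the member of the family known for steady expression, had log2 ratios of -0.034, -0.37 and -0.37 in LOI(+), against -0.13, 0.058 and -0.25 in LOI(-). The groups overlapped on both probes, and the differences were -0.15 ± 0.12 on probe 1 and -0.20 ± 0.14 on probe 2. Without LOI(-) 2 the Jund difference was -0.067 and without LOI(+) 1 it was -0.26, and -0.094 without LOI(+) 2 or LOI(+) 3.

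Egr1 and the stress factor Atf3 also overlapped between groups. The Egr1 difference was -0.13 ± 0.26, with a 95% interval from -0.75 to 0.49, the widest of the 10, and its LOI(-) arrays had an SD of 0.57 against 0.14 in LOI(+). It turned to 0.12 without LOI(-) 2 and was -0.44 without LOI(-) 1. Atf3 had log2 ratios of -1.69, -1.54 and -1.71 in LOI(+) and -1.61, -1.45 and -1.46 in LOI(-), where only LOI(+) 2 reached into the LOI(-) range. The Atf3 difference was -0.14 ± 0.074, with an unadjusted p of 0.0989 and an adjusted p of 0.819 in limma.

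The IER genes complete the set. Ier2 had log2 ratios of -0.89, -1.46 and -0.998 in LOI(+) crypts, against -1.16, -0.59 and -0.93 in LOI(-) crypts, and LOI(+) 2 and LOI(-) 2 were its extremes. Its difference of -0.22 ± 0.19 went to -0.052 without LOI(+) 2, to -0.071 without LOI(-) 2 and to -0.093 with normalized Cy3 alone, while it was -0.36 without LOI(-) 1 and -0.34 without LOI(+) 1. Ier3 stood at -3.54, -3.43 and -3.74 in LOI(+) crypts, against -3.49, -3.38 and -3.55 in LOI(-) crypts, with the groups overlapping. Ier3 differed by -0.098 ± 0.092, and by -0.014 without LOI(+) 3, -0.17 without LOI(+) 2 and -0.050 without LOI(-) 2.

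**Figure D3:**
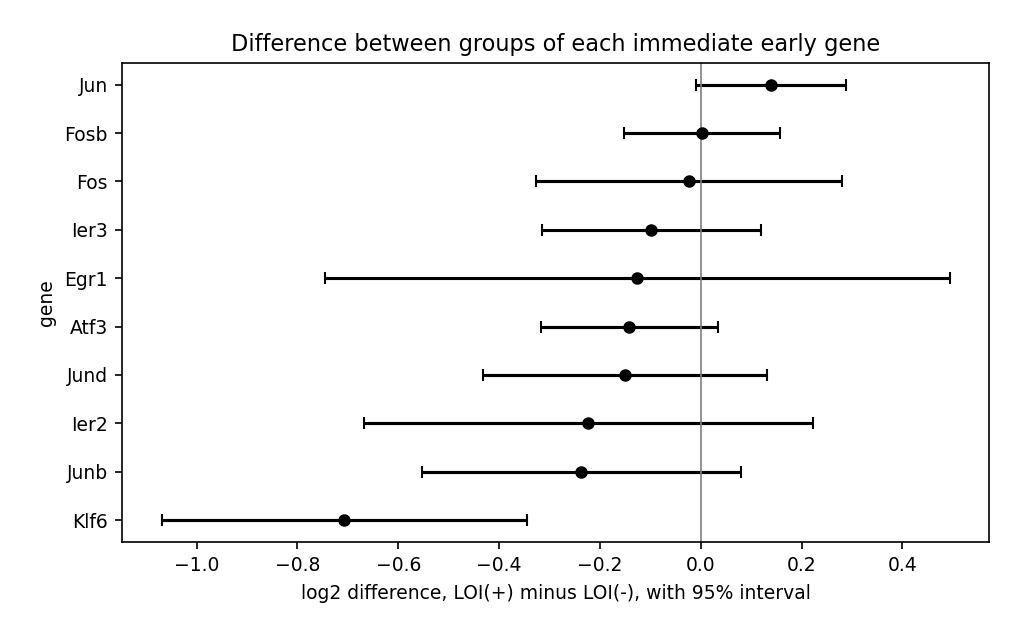
Log2 difference, LOI(+) minus LOI(-), of each gene with its 95% interval from limma (n = 3 mice a group, probe of highest Cy3 signal). The Klf6 interval, -1.07 to -0.35, lies below 0 and the other 9 include 0, and no gene passed after adjustment over all features.

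LOI(+) and LOI(-) arrays lay fully apart for 2 of the 10 genes, Jun (higher) and Klf6 (lower), where 11.4% of all features did not overlap, 6.42% higher and 4.97% lower in LOI(+). One array was often the highest. LOI(-) 2 had the highest ratio for 7 of the 10 genes, Fos, Junb, Jund, Egr1, Atf3, Ier2 and Ier3, where 15.9% of all features had their highest ratio on it. The lowest ratio was on LOI(+) 3 for 4 genes, Junb, Jund, Atf3 and Ier3, and on LOI(-) 1 for 3, Fos, Jun and Egr1, where 13.8% and 14.6% of all features were lowest on those arrays. The means of the 10 genes, each centred on its own mean, were -0.013, -0.11 and -0.11 on the LOI(+) arrays and -0.056, 0.21 and 0.076 on the LOI(-) arrays, and they overlapped.

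Without LOI(-) 2 the median difference of the 10 genes was -0.059, with 7 of 10 lower. Leaving out LOI(-) 1 instead gave -0.18, with 8 of 10 lower. The reference channel moved as well: Cy5 was highest on LOI(+) 3 for 8 of the 12 probes, against 30.4% of all probes, and its part in the low ratios on that array was not tested. Fos and Egr1 had the same extremes, LOI(-) 1 lowest and LOI(-) 2 highest, and Klf6 had others, LOI(+) 2 lowest and LOI(-) 1 highest.

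**Figure D4:**
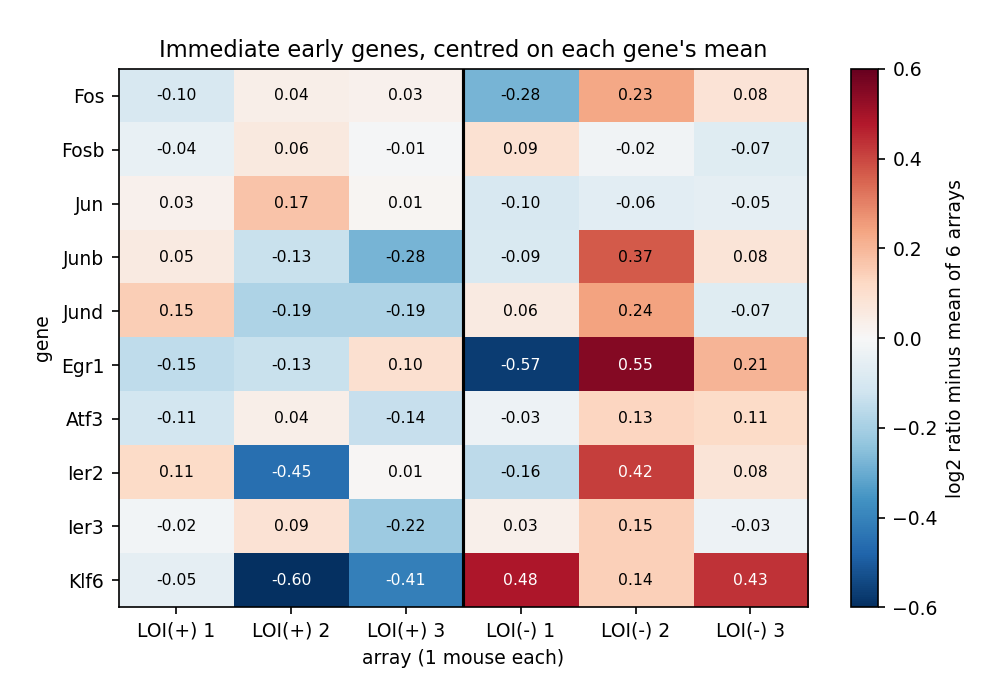
Log2 ratio of each gene on each array minus the gene's mean over the 6 arrays, red above and blue below that mean, LOI(+) arrays left of the line. The LOI(-) 2 column is highest for 7 of 10 genes, with Egr1 at 0.55, and LOI(-) 1 holds the lowest Egr1 value, -0.57.

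Over the 6 arrays, the genes with a profile most like the mean of the 10, among 11674 named genes above the negative controls on all arrays, were Mov10, Ccdc88c and Sh3bp5, each with a Pearson r of 0.990, Selp with 0.984 and Tnnt3 with 0.983. These r are the highest of many and share the same 6 arrays, so they only describe the profile.

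Of the 5 related lists, 4 held more genes lower than higher in LOI(+), and no gene of any passed after adjustment. Among other immediate early transcription factors, 16 of 23 measured were lower in LOI(+), with a median of -0.11, and 2 were lower at an unadjusted p under 0.05 in limma. These were Nr4a3, an orphan nuclear receptor, at -0.23 ± 0.076, and Mafk, a small MAF protein, at -0.22 ± 0.093. On the other side the smallest p were those of Egr4 at 0.076 ± 0.066 and Bhlhe40, a clock-linked repressor, at 0.13 ± 0.12. Without LOI(-) 2 the list had 13 of 23 lower and a median of -0.077. The median was -0.067 without LOI(+) 1 and -0.063 without LOI(+) 2.

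Among genes for feedback inhibitors, which end a stimulus, 13 of 17 were lower, with a median of -0.039. Zfp36, whose product destroys short-lived messages, was at -0.12 ± 0.060 and Errfi1, a brake on the EGF receptor, at -0.22 ± 0.11. Spry2, an inhibitor of receptor kinase signals, was at 0.19 ± 0.078, with an unadjusted p of 0.0444, and Tnfaip3, a brake on NF-kB, at 0.19 ± 0.088. The median of this list was -0.14 without LOI(-) 1 and -0.067 without LOI(+) 2.

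Of the effectors, secreted factors, kinases and others, 14 of 18 were lower, with a median of -0.091. Ereg, an EGF family ligand, was at -0.22 ± 0.065, with an unadjusted p of 0.0129 and an adjusted p of 0.801, and its arrays lay apart. Ccn1, a matrix protein induced by serum, was at -0.12 ± 0.059, while Areg, another EGF family ligand, was at 0.029 ± 0.080 and the chemokine Cxcl2 at 0.044 ± 0.053. Without LOI(-) 2 the effector median was -0.030 and without LOI(+) 1 it was -0.047.

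The kinases and factors upstream of these genes had no common side, with 12 of 23 higher and 11 lower and a median of 0.0090. Srf, the serum response factor, was at 0.22 ± 0.080 with an unadjusted p of 0.0286, and its log2 ratios, -0.69, -0.47 and -0.70 in LOI(+) and -0.85, -0.78 and -0.89 in LOI(-), lay apart. Map2k6, a kinase that activates p38, was at 0.12 ± 0.052. Mrtfb, a coactivator of SRF, was at -0.14 ± 0.064 and Elk3, a partner factor of SRF, at -0.17 ± 0.091. The median of the list was 0.11, with 7 of 23 lower, without LOI(-) 3, and 0.066 without LOI(+) 1, 0.025 without LOI(+) 3 and 0.020 without LOI(-) 2, and it was -0.0038 without LOI(+) 2 and -0.019 without LOI(-) 1.

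Heat shock genes, which also respond to handling, were lower for 10 of 15, with a median of -0.058. Cryab, a small heat shock protein, was at -0.20 ± 0.066 with an unadjusted p of 0.0186, and Hsf1, the heat shock factor, at -0.54 ± 0.28. Hspa4 was at 0.37 ± 0.20 and Hspe1, a mitochondrial chaperone, at 0.23 ± 0.13. The summed Cy3 signal of the 15 genes above the negative controls was 43507 to 80434 in LOI(+) and 46595 to 58684 in LOI(-), so the groups overlapped. The heat shock median was -0.12 without LOI(+) 3 and -0.13 without LOI(-) 1, and -0.017 on the arrays labelled male.

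**Figure D5:**
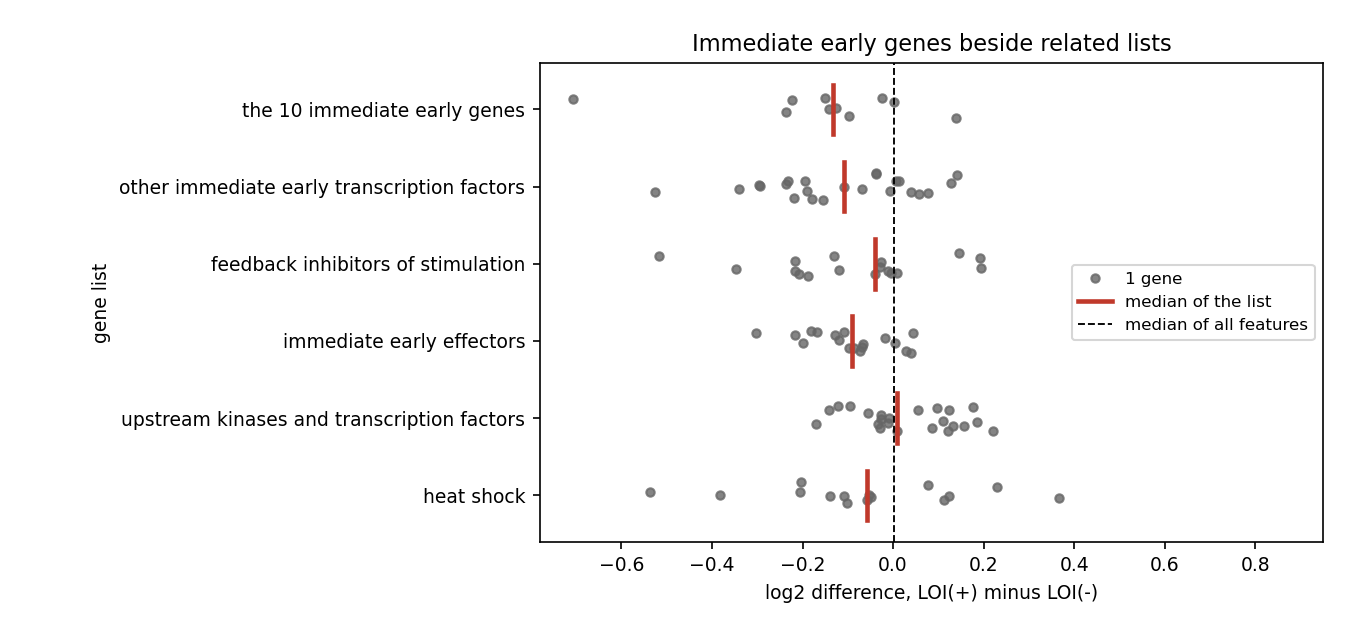
Log2 difference, LOI(+) minus LOI(-), of each measured gene (points) in the 10 immediate early genes and 5 related lists, with each list's median (bars) and the median of all features (dashed line). Medians lie between -0.13 for the 10 genes and 0.0090 for the upstream kinases and transcription factors.

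Markers of most other cell types in the tissue were also lower more often than higher. Of smooth muscle markers 6 of 8 were lower in LOI(+), of fibroblast markers 8 of 9, of myeloid markers 5 of 6, of endothelium markers 6 of 7, of T cell markers 8 of 9 and of goblet cell markers 7 of 8, while 5 of 5 villus enterocyte markers were higher. The muscle protein gene Tagln was at -0.35 ± 0.12 and the goblet mucin gene Muc2 at -0.19 ± 0.073. Summed Cy3 signals above the negative controls overlapped between groups for smooth muscle, at 4245 to 4953 in LOI(+) and 4099 to 5403 in LOI(-), for fibroblasts, at 1825 to 3174 in LOI(+) and 1600.4 to 3763 in LOI(-), and for myeloid cells, at 17556 to 35859 in LOI(+) and 20226 to 69805 in LOI(-). They lay apart for villus enterocytes, at 35233 to 55369 in LOI(+) and 27325 to 32656 in LOI(-), with an outlier spot of Apoa1 on LOI(+) 2 kept in the sum, and for crypt stem and progenitor cells, at 7019 to 9527 in LOI(+) and 4308 to 6294 in LOI(-). Log2 ratios separated the groups less than these sums did. With each gene centred on its own mean, crypt stem and progenitor means overlapped. LOI(+) arrays gave 0.033, -0.036 and 0.23, whereas LOI(-) arrays gave -0.056, -0.21 and 0.042. Villus enterocyte means lay apart narrowly. LOI(+) arrays gave 0.086, 0.13 and 0.20, whereas LOI(-) 2 gave 0.065, LOI(-) 3 gave 0.078 and LOI(-) 1 lay far below, at -0.54. Only Lmod1, a smooth muscle marker, was at or under the negative controls on every array among these lists. The part of these cells in the immediate early values was not tested. Images were extracted from the LOI(-) arrays first and from the LOI(+) arrays after them, per the file headers, so that order and group cannot be told apart.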

How the data were processed

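The authors deposited each array's spot intensity in Cy3 and Cy5 as written, per the file headers, by version A.7.5.1 of Agilent's Feature Extraction, beside a processed intensity that the software had background-subtracted and dye-normalized. The deposited table of log10 values matched the log10 ratio of processed Cy3 over Cy5 with the probe's mean log10 Cy5 added, and over 41174 features the r of every array was at least 0.998. Its 6 medians were 2.90, and it served as an alternative.

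Here limma 3.58.1 under R 4.3.3 corrected mean signals for background (normexp, offset 50) and applied loess to each array, control spots having weight 0. Outlier spots were dropped, saturated ones were not, and every value is the log2 ratio of Cy3 to Cy5. The offset pulls the ratios of dim spots toward 0. Names came from a GRCm38.p6 gene table by accession or synonym, which named 15415 of 41006 probes (37.6%), and a gene was read by its probe of highest mean Cy3. No filter on dim probes was set. Groups were compared with lmFit and eBayes, two-sided, with Benjamini-Hochberg adjustment over all 37941 genes and unnamed probes at 0.05. The median SE was 0.077, and the number of arrays limits the precision. Per the labels each array is a different mouse.

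The members and lists were chosen with earlier results of these data known, and the motifs after seeing the sequences. Named beside the members were, of each related list, the 2 genes of smallest p in each direction, and the first measured gene of each marker list where it bears on a statement. One such marker is not reported here, and the remaining first markers were Col1a1 at -0.031, Pecam1 at -0.062, Itgam at -0.087, Cd3d at 0.11, Apoa1 at 0.34, on 5 arrays since its LOI(+) 2 spot was an outlier, Mmp7 at -0.16 and Lgr5 at 0.19. The lists of B and plasma cell, Paneth cell and crypt stem and progenitor markers had 4 of 8, 4 of 6 and 2 of 5 genes lower in LOI(+). On simulated data with 50 genes changed at each size among 37650, limma recovered 64% of those changed by 0.5 on the log2 scale. It recovered 96% of those changed by 1 and 100% of those changed by 2 or 3, with 15 false calls. Whether these shares hold for the measured arrays, where the smallest adjusted p in limma was 0.801, was not tested.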

Additional observations from a re-analysis of the deposited data

How the results depend on the processing

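No member passed an adjusted p of 0.05 under any alternative run, and neither did any other feature. Klf6 stayed lower in all, from -0.86 to -0.55, as did Junb, Jund, Atf3 and Ier2. Near 0, the sign of others turned. Fosb was at -0.012 without background correction, -0.00058 with the scanner software's processed signals, -0.00066 with the deposited table, -0.012 with scale normalization between arrays, -0.0074 as the mean of its probes and -0.062 on the arrays labelled male. Fos was at 0.024 with normexp and no offset and 0.081 with normalized Cy3 alone, which put Ier3 at 0.0062, and Jun was at -0.0097 without background correction. Leaving out 1 array in turn moved Fos from -0.17 to 0.086, Fosb from -0.034 to 0.049 and Egr1 from -0.44 to 0.12.

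The median of the 10 genes was -0.27 with scale normalization, -0.084 with median centring and -0.064 with Cy3 alone, where 6 of 10 were lower. At an unadjusted p under 0.05 were 3 genes with scale normalization and 2 with normexp and no offset, against 6.81% and 6% of all features. Arrays did not overlap for 1 gene without background correction and for 4 on the arrays labelled male, against 11.9% and 31.5% of all features. Leaving out 1 array gave 1 to 4 genes at an unadjusted p under 0.05 (4 without LOI(-) 1, where it was 5.52% of all features, and 2 without LOI(+) 1 or LOI(+) 2, where it was 8.82% and 3.95%) and 2 to 6 whose arrays did not overlap (6 without LOI(-) 1, 4 without LOI(+) 1 and 3 without LOI(+) 2, against 22.3%, 26.3% and 17.7% of all features). The count of all features at that level went from 1498 without LOI(+) 2 to 3345 without LOI(+) 1.

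The median of other immediate early transcription factors was -0.044 without background correction, -0.14 with processed signals and with the deposited table, -0.17 with scale normalization, -0.069 as the mean of probes, -0.15 with Cy3 alone and -0.068 on the arrays labelled male. With scale normalization the feedback inhibitors stood at -0.088 and the effectors at -0.25, with Cy3 alone the inhibitors at -0.13, and on the arrays labelled male 6 upstream genes were lower. The heat shock median was -0.025 with Cy3 alone, -0.10 with processed signals and with the deposited table, and -0.13 with scale normalization. Leaving out 1 array gave medians from -0.13 to -0.063 for other transcription factors, -0.14 to -0.027 for inhibitors, -0.12 to -0.030 for effectors and -0.019 to 0.11 for upstream genes, of which 7 to 12 were lower. The cause of these shifts was not tested.

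Deviations of same-numbered mice had r of -0.089, -0.25 and 0.35 for numbers 1, 2 and 3. Mice of different number had r from -0.39 to 0.45. With the replicate number as a block, 0 features passed and Klf6 stood at -0.71 with an adjusted p of 0.654 in limma. Signal near the array's median limits what the probes of Fos, Jun, Junb, Egr1, Atf3 and Ier3 can show.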
